A study of Mus musculus with 9 samples.

Results

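The genes described here are 9 identity genes of B and T lymphocytes, followed in monocytes sorted from mouse blood and brain: Cd79a, Cd79b, Ms4a1 and Pax5 for B cells, and Cd3d, Cd3e, Cd3g, Lck and Lat for T cells. They were chosen by name as genes that define the 2 lineages, and all 9 were found among the 23238 gene symbols of the count tables. Mature B cells carry an antigen receptor whose signal passes through CD79A and CD79B, while T cells pass theirs through the CD3 chains, the kinase LCK and the adaptor LAT. Monocytes are myeloid cells and use neither receptor, so these genes are commonly read as markers of lymphocytes in a myeloid sort. LCK and LAT are used by natural killer (NK) cells too.

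The libraries came from a mouse model of neuromyelitis optica (NMO), an autoimmune disease in which antibodies against the water channel aquaporin-4 damage astrocytes. Female wild-type C57BL/6N mice aged 12 weeks were used throughout. The NMO-like mice had received patient-derived NMO-IgG with human complement into the striatum of 1 hemisphere, and the normal mice were left untreated, so that no library here carries a control IgG, complement alone or a sham injection. Monocytes were taken on day 1 from the blood of normal mice (Nor_Bl_mono), the blood of NMO-like mice (NMO_Bl_mono) and the brain of NMO-like mice (NMO_Br_mono), with 3 libraries in each group and 5 mice pooled in each library. Cells were sorted as CD45+ CD11b+ P2ry12- Ly6C+ Ly6G-, a gate meant to leave out microglia and neutrophils that names no lymphocyte or NK cell marker to exclude. Blood cells came from a density gradient and brain cells from an enzymatic digest, so tissue and preparation cannot be told apart. The labels do not say whether the pools of different groups shared mice, and p-values measure the spread between these 3 pools per group.

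Levels are given as CPM, QuantSeq 3ʹ read counts scaled to library size with TMM factors, and a count of 3 or fewer in a library is called the floor, which lay between 0.273 and 0.432 CPM. The libraries held 7584649 to 10419647 counts, of which the ribosomal RNA gene Rn45s took 28.4% to 43.6%. Replicate 3 of NMO_Bl_mono stood apart, with counts for 4567 genes against 6473 to 11556 in the other libraries, and 22.3% of the genes at 50 CPM or more in both other NMO_Bl_mono libraries were at the floor in it. Replicate 2 of NMO_Br_mono came next, with counts for 6473 genes and 8.26% lost in the same way, against at most 1.94% in the other 7 libraries. Monocyte markers were detected in each library: of 14 monocyte markers, all were above the floor in 7 libraries, 11 in NMO_Bl_mono replicate 3 and 13 in NMO_Br_mono replicate 2, and their summed level ranged from 3951 to 10249 CPM.

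On the mouse build GRCm38, in the GENCODE annotation, the 9 genes lie on 5 chromosomes. Cd79a is on the plus strand at chr7:24897381-24902197, Cd79b on the minus strand at chr11:106311341-106314762, Ms4a1 on the minus strand at chr19:11249675-11266241 and Pax5 on the minus strand at chr4:44524757-44710487. The CD3 genes form a cluster of 40.1 kb: Cd3g on the minus strand at chr9:44969572-44980431, Cd3d on the plus strand at chr9:44981786-44987339 and Cd3e on the minus strand at chr9:44998740-45009627. Cd3g and Cd3d are read away from each other from starts 1354 bases apart. Lck lies on the minus strand at chr4:129548344-129573641 and Lat on the minus strand at chr7:126363824-126369570. Antisense genes overlap Ms4a1, Pax5 and Cd3e, and since the strand setting of the authors' counting is not given in the sources used here, reads of such a partner cannot be told apart from theirs.

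The 250 bases before the RefSeq starts are shown for the members that share a short motif there, Cd79a, Cd3e and Lck. As described below, these members were seen in some libraries and at 0 in others. So were Cd3d, Cd3g and Lat, whose windows did not hold the motif. RefSeq (GRCm38.p6) gave 8 such windows for 7 of the 9 members, 2 of them for Lck, whose distal and proximal promoters lie apart; Cd79b and Ms4a1 were not matched. Capitals mark CAGGAAGT, or its reverse complement ACTTCCTG, a form of the core bound by Ets family factors. The windows are Cd79a at chr7:24897247-24897496 on the plus strand, Cd3e at chr9:45009612-45009861, the distal Lck window at chr4:129573642-129573891 and the proximal one at chr4:129558373-129558622, the last 3 on the minus strand. The RefSeq starts of Cd79a and Cd3e lie inside the GENCODE genes, so part of each window does too. The marked letters of Cd79a fall in that inner part, and those of Cd3e straddle its edge. The proximal Lck window lies wholly inside the GENCODE span of Lck.
Cd79a: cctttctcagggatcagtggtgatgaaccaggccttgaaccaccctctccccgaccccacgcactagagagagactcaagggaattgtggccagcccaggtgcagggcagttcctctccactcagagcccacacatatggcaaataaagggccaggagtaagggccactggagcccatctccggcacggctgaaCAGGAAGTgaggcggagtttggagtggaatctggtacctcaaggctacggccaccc
Cd3e: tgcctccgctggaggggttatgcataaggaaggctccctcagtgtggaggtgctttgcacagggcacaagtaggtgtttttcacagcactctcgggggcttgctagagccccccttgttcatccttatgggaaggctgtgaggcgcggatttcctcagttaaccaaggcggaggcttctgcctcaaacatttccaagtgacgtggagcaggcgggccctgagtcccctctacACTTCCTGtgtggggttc
Lck distal: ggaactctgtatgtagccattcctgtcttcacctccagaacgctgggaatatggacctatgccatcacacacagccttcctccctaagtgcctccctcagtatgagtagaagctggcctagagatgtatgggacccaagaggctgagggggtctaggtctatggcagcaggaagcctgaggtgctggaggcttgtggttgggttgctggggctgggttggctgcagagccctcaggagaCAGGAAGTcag
Lck proximal: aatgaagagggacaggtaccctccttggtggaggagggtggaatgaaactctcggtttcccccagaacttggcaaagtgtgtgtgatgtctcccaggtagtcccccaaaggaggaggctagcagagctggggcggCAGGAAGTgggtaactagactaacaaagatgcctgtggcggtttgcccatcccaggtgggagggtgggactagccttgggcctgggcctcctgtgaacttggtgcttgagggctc
The motif stood in 4 of the 8 windows, from 3 members, searched on both strands, and in 2.69% of all 32851 windows of the same length. It was chosen after these sequences were seen, so the count is a description. The windows of Pax5, Lat, Cd3g and Cd3d did not hold these letters. Reads counted at the 3ʹ end give 1 value for Lck and do not separate its promoters.

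Across the 9 members and 9 libraries, 46 of the 81 values were 0, 2 were counts of 1 to 3, and 33 were above the floor. Those 33 were not marginal counts: the lowest was 9, the median 94 and the highest 1009. Thus a member was mostly either missing from a library or present with many reads. Members above the floor numbered 7, 6 and 2 in Nor_Bl_mono replicates 1, 2 and 3, then 7, 4 and 1 in NMO_Bl_mono, and 4, 1 and 1 in NMO_Br_mono. No member was above the floor in all 9 libraries, and 3 (Cd79b, Lck and Cd3g) were so in at least 5. In pools of cells such as these, fewer cells of a type and less RNA per cell cannot be told apart.

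**Figure D1:**
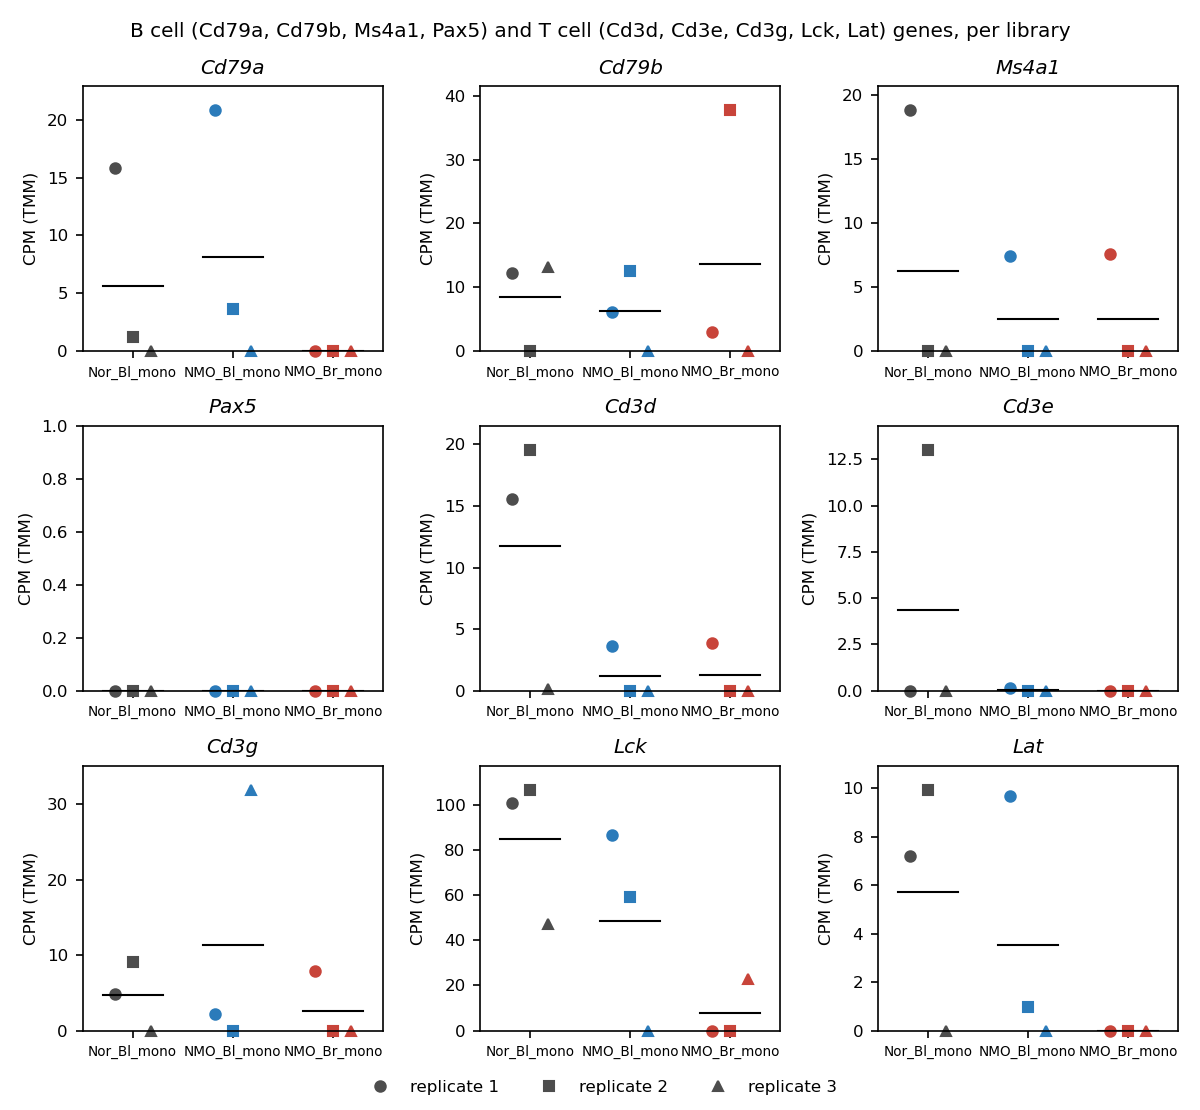
Level of each member (y axis, CPM with TMM factors, linear, each panel with its own range) in each library of the 3 groups (x axis); symbols mark replicates 1 to 3 and the line is the group mean. Of the 81 values 46 are 0, Pax5 is at 0 in all 9 libraries, and Lck is the member with all 3 Nor_Bl_mono libraries above all 3 NMO_Br_mono libraries.

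Among the B cell receptor subunits, Cd79a, which encodes the Igα chain, was seen in blood and not in brain. Its level was 15.8, 1.16 and 0 CPM in the 3 Nor_Bl_mono libraries, 20.9, 3.59 and 0 CPM in the 3 NMO_Bl_mono libraries and 0 CPM in all 3 NMO_Br_mono libraries. Replicate 1 was the high library in each blood group, replicate 3 of each blood group had no read, and so both blood groups overlapped the brain group. Against the floor of the brain libraries, Cd79a was at least 26.5-fold lower in NMO_Br_mono than in NMO_Bl_mono and at least 18.4-fold lower than in Nor_Bl_mono. Neither difference passed the quasi-likelihood test of edgeR, with adjusted p = 0.802 and adjusted p = 0.708.

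Cd79b, which encodes the Igβ chain that pairs with Igα, did not follow Cd79a. It was at 12.2, 0 and 13.1 CPM in Nor_Bl_mono, at 6.16, 12.5 and 0 CPM in NMO_Bl_mono, and at 2.94, 37.8 and 0 CPM in NMO_Br_mono. The highest value of the 9 libraries was thus in brain, in replicate 2, one of the libraries that stood apart, and the groups overlapped. In that library 397 reads of Cd79b stood beside 0 of Cd79a, although the chains are known to work as a pair. Both chains were above the floor in 3 libraries only, which were Nor_Bl_mono replicate 1 and NMO_Bl_mono replicates 1 and 2. The fitted log2 fold change of Cd79b was 1.12 ± 3.17 (SE) in NMO_Br_mono against NMO_Bl_mono, and without NMO_Br_mono replicate 2 it was -2.06.

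Ms4a1, which encodes the B cell surface protein CD20, was found in replicate 1 of each group and nowhere else. It was at 18.8 CPM in Nor_Bl_mono, 7.42 CPM in NMO_Bl_mono and 7.58 CPM in NMO_Br_mono, from 131, 53 and 67 reads, and at 0 in the other 6 libraries. The groups overlapped fully, and the fitted log2 fold change between NMO_Br_mono and NMO_Bl_mono was 0.03 ± 3.74 (SE). Pax5, the transcription factor that maintains B cell identity, had no read in any of the 9 libraries. With 3 counts as the limit that a count of 0 allows, its level was under 0.273 to 0.432 CPM, depending on the library and for counting error only.

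For the T cell receptor complex, Cd3d, which encodes CD3δ, was highest in normal blood. It was at 15.5, 19.6 and 0.102 CPM in Nor_Bl_mono, the last from 1 read, at 3.64, 0 and 0 CPM in NMO_Bl_mono, and at 3.85, 0 and 0 CPM in NMO_Br_mono. Normal blood replicates 1 and 2 were above all other libraries, and replicate 3 overlapped both NMO groups. The fitted log2 fold change was -3.26 ± 3.73 (SE) in NMO_Bl_mono against Nor_Bl_mono and -3.18 ± 3.71 (SE) in NMO_Br_mono against Nor_Bl_mono, each with an adjusted p of 1 in edgeR. Each error is larger than the difference it belongs to.

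Cd3e, which encodes CD3ε, was seen in 1 library. Nor_Bl_mono replicate 2 had 123 reads (13 CPM), NMO_Bl_mono replicate 1 had 1 read (0.140 CPM), and the other 7 libraries had none. It did not pass the filter on low counts, so it was not among the genes tested. Set against the floor, it was at least 12.8-fold lower in NMO_Bl_mono and at least 14.1-fold lower in NMO_Br_mono than in Nor_Bl_mono, figures that rest on that library alone. With no filter on low counts, the fit gave adjusted p = 1 and adjusted p = 0.680 for these differences.

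Cd3g, which encodes CD3γ, had its highest value in a library where the other CD3 genes had none. It was at 4.89, 9.09 and 0 CPM in Nor_Bl_mono, at 2.24, 0 and 31.9 CPM in NMO_Bl_mono, and at 7.92, 0 and 0 CPM in NMO_Br_mono. The 351 reads in NMO_Bl_mono replicate 3, the library with the fewest genes, were its only reads of any member. The groups overlapped, and the fitted log2 fold change in NMO_Br_mono against NMO_Bl_mono was -2.10 ± 3.57 (SE), which became 1.24 without NMO_Bl_mono replicate 3. All 3 CD3 chains, which are assembled into 1 receptor complex, were above the floor together in Nor_Bl_mono replicate 2 and in no other library.

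Lck, the Src family kinase that phosphorylates the CD3 chains, had the most reads of the 9 members, 3565 over all libraries, and was above the floor in 6 of them. It was at 101, 107 and 47.2 CPM in Nor_Bl_mono, at 86.7, 59.0 and 0 CPM in NMO_Bl_mono, and at 0, 0 and 23.0 CPM in NMO_Br_mono. Every normal blood library was above every brain library, while NMO_Bl_mono overlapped normal blood, and overlapped brain through its replicate 3. Group means were 84.9 ± 32.8, 48.6 ± 44.3 and 7.66 ± 13.3 CPM (SD, n = 3 each) in that order, and the neighbouring pairs in this order did not differ beyond their spread. The fitted log2 fold change was -3.47 ± 2.39 (SE) in NMO_Br_mono against Nor_Bl_mono, and -2.66 ± 2.31 (SE) against NMO_Bl_mono, each with an adjusted p of 1 in edgeR. Without NMO_Br_mono replicate 3, the brain library with Lck reads, the unadjusted edgeR p was 0.00269 and 0.00361, and the adjusted p 0.358 and 0.457.

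Lat, the membrane adaptor phosphorylated downstream of LCK, was seen in blood and not in brain, as was Cd79a. It was at 7.19, 9.94 and 0 CPM in Nor_Bl_mono, at 9.66, 0.979 and 0 CPM in NMO_Bl_mono and at 0 CPM in all 3 NMO_Br_mono libraries. Replicate 3 of each blood group had no read, so the groups overlapped. Lat was at least 11.5-fold lower in NMO_Br_mono than in NMO_Bl_mono (adjusted p = 0.802 in edgeR) and at least 18.6-fold lower than in Nor_Bl_mono (adjusted p = 0.708). Its 4 libraries with reads were also those in which Cd79a was above the floor, namely replicates 1 and 2 of each blood group.

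In the comparison of brain with blood in the NMO-like mice, which asks what sets infiltrated monocytes apart, 0 of the 7 members tested passed an adjusted p of 0.05, where 0.247% of all 10107 genes did. At the study's threshold, an unadjusted p under 0.05 with a fold of 1.2, the count was also 0 of 7 beside 5.32% of all genes. By other tools that count was 1 in DESeq2 (Cd79a) and 2 in limma-voom (Cd79a and Lat), and none passed after adjustment. The share of all genes in these tools is not given here, and 5.32% is that of edgeR. No member had all brain libraries below all NMO_Bl_mono libraries, which was so for 6.05% of genes. Each member was at 0 in at least 1 NMO_Bl_mono library, so no other outcome was possible. The median log2 fold change of the 7 members was -2.10, with Cd79a and Lat at their fitted values or at their bounds, beside 0.05 over all genes. That median moved to between -7.53 (without NMO_Br_mono replicate 1) and -0.54 (without NMO_Bl_mono replicate 3) when 1 library was left out, and to -4.16 with a replicate block.

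NMO-like blood against normal blood, which asks whether circulating monocytes had already changed, gave 0 of 7 members at an adjusted p of 0.05, where 0% of all genes passed in edgeR. At the unadjusted threshold the count was 0 of 7, beside 0.712% of all genes in edgeR, and it was 0 in DESeq2 and limma-voom as well. No member had all NMO_Bl_mono libraries below all Nor_Bl_mono libraries, which held for 4.45% of genes, or above them, which held for 2.34%. Since each member had a 0 in NMO_Bl_mono, none could lie above. Only Lck and Cd3d, with no 0 in Nor_Bl_mono, could lie below. Fitted log2 fold changes ran from -3.26 for Cd3d to 1.29 for Cd3g, with standard errors of 2.18 to 3.81, and their median was -0.69 beside -0.16 over all genes. It ran from -1.65 (without NMO_Bl_mono replicate 1) to -0.07 (without Nor_Bl_mono replicate 1) when 1 library was left out.

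NMO-like brain against normal blood shares the brain libraries with the first comparison and is not an independent repeat of it. In it, 0 of 7 members passed the adjusted threshold, where 0.247% of genes did, and 0 of 7 passed the unadjusted one, beside 5.82% of genes. DESeq2 placed 2 members (Cd79a and Lat) and limma-voom 2 (Lat and Lck) past the unadjusted threshold, and neither placed any past the adjusted one. The share of all genes in these tools is not given here, and 5.82% is that of edgeR. Lck was the 1 member of 7 with all brain libraries below all normal blood libraries, beside 9.37% of all genes. Only Lck and Cd3d had reads in every normal blood library, so no other member could lie below. The median log2 fold change of the members was -3.18, with Cd79a and Lat at their fitted values or at their bounds, beside -0.12 over all genes. It moved to between -8.72 (without NMO_Br_mono replicate 1) and -2.59 when 1 library was left out, and to -5.83 with a replicate block.

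**Figure D2:**
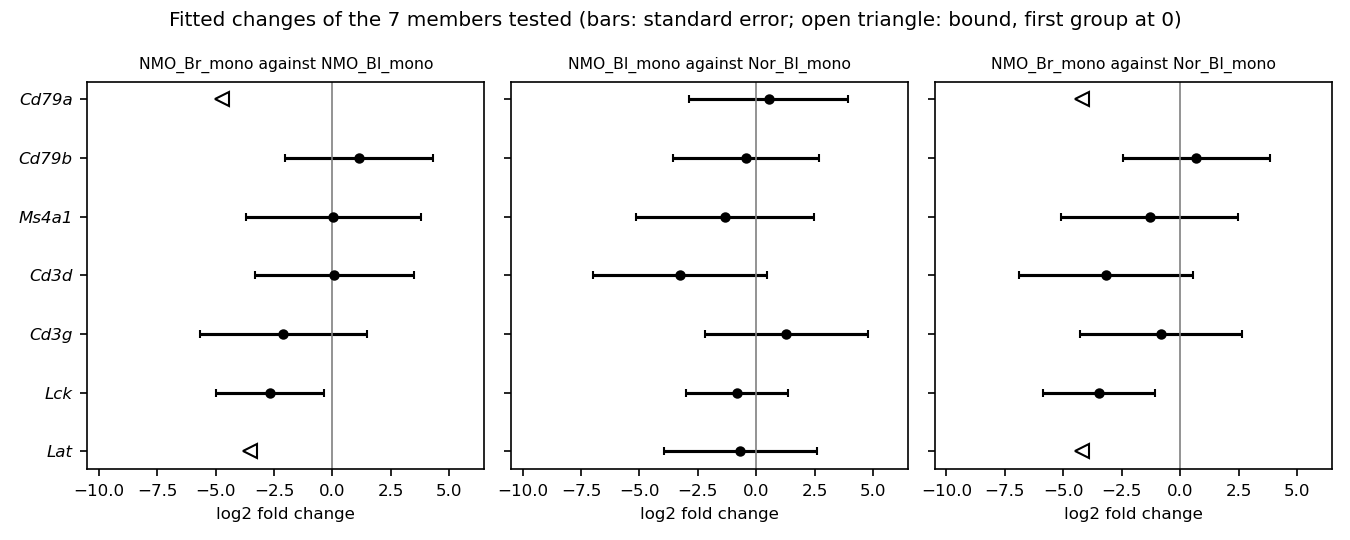
Log2 fold change (x axis) of the 7 members tested (y axis) in the 3 comparisons; filled points are fitted values with their standard error, and open triangles are bounds for a member at 0 in every library of the first group. Every filled point lies within 1.5 standard errors of 0, and Cd79a and Lat have a bound in each comparison with brain.

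Added up, the 4 B cell members were at 46.9, 1.16 and 13.1 CPM in Nor_Bl_mono, at 34.5, 16.1 and 0 CPM in NMO_Bl_mono, and at 10.5, 37.8 and 0 CPM in NMO_Br_mono. The brain value of 37.8 CPM is Cd79b alone, and it lies inside the range of the blood libraries. The 5 T cell members added up to 129, 158 and 47.3 CPM in Nor_Bl_mono, 102, 60.0 and 31.9 CPM in NMO_Bl_mono, and 11.8, 0 and 23.0 CPM in NMO_Br_mono. Every blood library was above every brain library in that sum, which Lck dominated. Without Lck the T cell sum was 27.6, 51.6 and 0.102 CPM, then 15.7, 0.979 and 31.9 CPM, then 11.8, 0 and 0 CPM, and blood and brain overlapped. The lowest blood sum with Lck, 31.9 CPM, consisted of Cd3g in NMO_Bl_mono replicate 3.

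The summed level of NK cell markers was lower in each brain library than in each blood library, as the T cell sum was. The sum over 16 genes was 4166 to 5488 CPM in Nor_Bl_mono, 4890 to 5500 CPM in NMO_Bl_mono and 112 to 655 CPM in NMO_Br_mono. All 16 were above the floor in 5 of the blood libraries and 12 in NMO_Bl_mono replicate 3, while 8, 10 and 12 were so in brain. The fitted change was negative for 14 of the 16 in brain against NMO-like blood, the others being Cd7 at 0.17 ± 1.58 (SE) and Xcl1 at 0.10 ± 2.30 (SE) on the log2 scale, named after their values were seen, and for all 16 against normal blood. Of the 16, 5 fell in brain against each blood group at an adjusted p under 0.05 in edgeR: Gzmb (granzyme B), Nkg7, Ccl5, Il2rb (the interleukin 2 receptor β chain) and Txk (a Tec family kinase). Of all 10107 genes tested, 23 were lower in brain at that threshold against NMO_Bl_mono and 22 against Nor_Bl_mono. Ccl5, a chemokine of cytotoxic cells, fell by 3.93 ± 0.57 (SE) on the log2 scale against NMO_Bl_mono, with adjusted p = 0.0103. Since Lck and Lat are read in NK cells too, the part of such cells in their values was not tested.

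**Figure D3:**
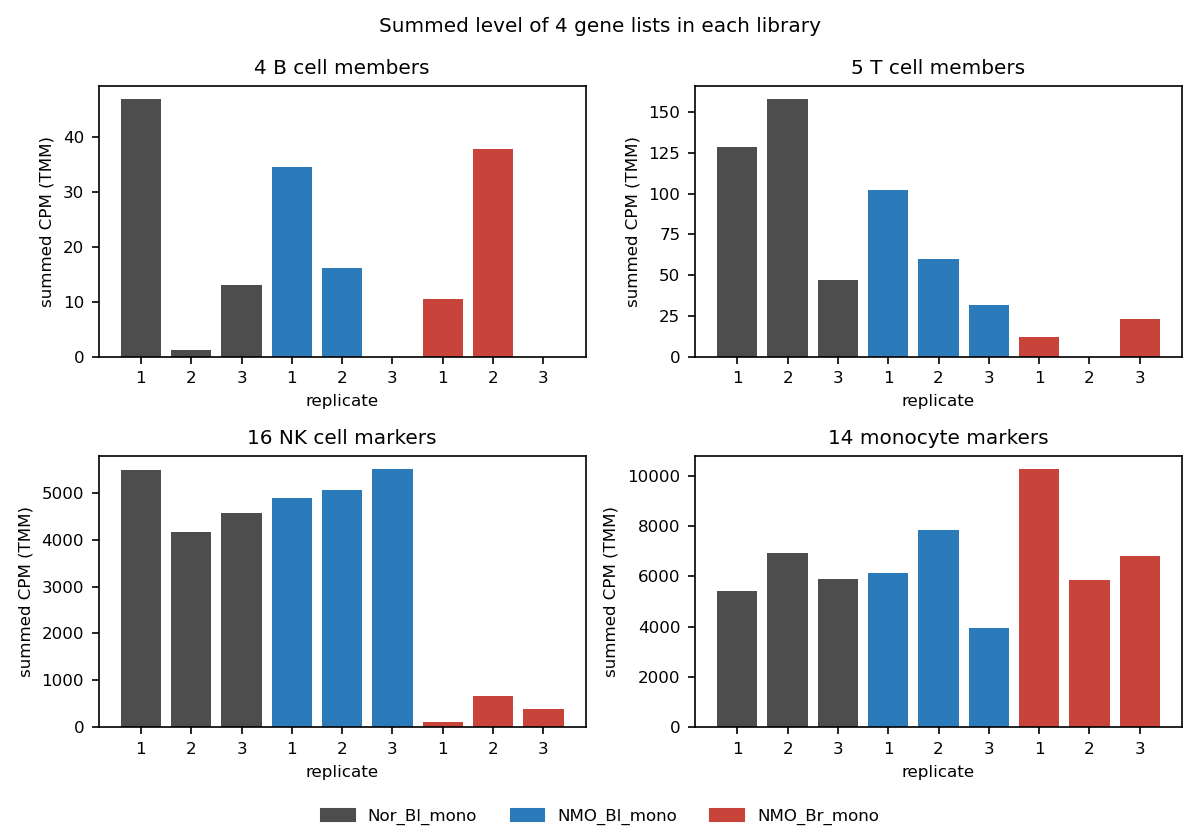
Summed level (y axis, CPM with TMM factors, from 0, each panel with its own range) of the 4 B cell members, the 5 T cell members, 16 NK cell markers and 14 monocyte markers in each library (bars, x axis: replicates 1 to 3 of each group in colour). The B cell sum in brain reaches 37.8 CPM within the range of blood, while the T cell and NK cell sums are lower in each brain library than in each blood library.

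Wider lists were read beside the members. Of 31 further B cell genes, 27 were in the tables and 20 were tested, and 0 passed an adjusted p of 0.05 in any comparison. At the unadjusted threshold 1 of the 20 was lower in brain against normal blood, beside 411 of all 10107 genes tested. It was Cd55, named here after its values were seen. Cd55, a complement-regulating surface protein of many cell types, was at 10.9, 8.77 and 2.04 CPM in Nor_Bl_mono, at 9.52, 4.79 and 0 CPM in NMO_Bl_mono, and was listed at 0 in brain. All normal blood libraries were above all brain libraries, while NMO_Bl_mono replicate 3 overlapped brain, and its adjusted p against normal blood was 0.708 in edgeR.

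The B cell genes with the highest mean level were Ms4a4c, Cd37, Cd72 and Bach2, none of which is confined to B cells. Ms4a4c was at 137 ± 27.3 CPM in Nor_Bl_mono, 103 ± 22.7 CPM in NMO_Bl_mono and 186 ± 54.1 CPM in NMO_Br_mono (SD, n = 3 each). Bach2, a transcriptional repressor of B and T cells, was at 30.0 ± 26.3, 49.0 ± 17.7 and 9.48 ± 9.07 CPM in the same order. Group means of Cd37 were 40.6, 74.1 and 42.3 CPM and those of Cd72 39.6, 42.6 and 33.5 CPM, with overlapping libraries. The median log2 fold change of the 20 tested was -2.73 in brain against NMO-like blood (-2.47 with 7 genes at their bounds), 0.17 between the blood groups and -2.17 in brain against normal blood.

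Of 33 further T cell genes, 30 were in the tables and 19 were tested, with 0 past an adjusted p of 0.05. At the unadjusted threshold 7 of 19 were lower in brain against each blood group and 0 between the blood groups. Of all 10107 genes tested, 388 were lower in brain against NMO-like blood, 411 in brain against normal blood and 25 between the blood groups. Ms4a4b, a membrane protein of T and NK cells, was at 104, 129 and 63.8 CPM in Nor_Bl_mono, 92.3, 41.7 and 130 CPM in NMO_Bl_mono and 1.70, 0.0951 and 16.7 CPM in NMO_Br_mono. All blood libraries were above all brain libraries, and its adjusted p in edgeR was 0.802 against NMO_Bl_mono and 0.708 against Nor_Bl_mono. Cd247, which encodes the CD3ζ chain shared by T cell receptors and NK cell receptors, was at 48.2, 4.02 and 39.6 CPM, then 35.3, 74.2 and 0 CPM, and at no more than 1 read in brain.

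Cd2, an adhesion molecule of T and NK cells, was at 113, 131 and 10.9 CPM in Nor_Bl_mono, 124, 51.6 and 40.4 CPM in NMO_Bl_mono and 0, 0 and 16.7 CPM in NMO_Br_mono. Lef1, a transcription factor of naive T cells, had its highest value in a brain library, NMO_Br_mono replicate 3, with 118 CPM beside 5.09 and 10.4 CPM in the other brain libraries and 12.6 to 100 CPM in blood. Il7r, named after its values were seen, was higher in every brain library than in every blood library. It was at 36.6, 12.8 and 48.3 CPM in NMO_Br_mono, 0, 12.4 and 0.204 CPM in Nor_Bl_mono and 7.98, 4.24 and 1.55 CPM in NMO_Bl_mono. The fitted change was positive for 2 of the 19 tested in brain against NMO-like blood and for 3 against normal blood. Of the T cell co-receptors, named after their values were seen, Cd4 had 1 read over the 9 libraries together, and Cd8a reached 8.34 CPM in Nor_Bl_mono replicate 1 and was 0 in brain. The median log2 fold change of the 19 tested was -6.92 in brain against NMO-like blood (-3.83 with 10 genes at their bounds), -0.24 between the blood groups and -8.29 in brain against normal blood (-4.62 with 10 at their bounds). Antibody and T cell receptor constant genes were not matched by symbol and are not analysed here.

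Genes of antigen receptor signalling, most of which myeloid cells use as well, were detected far more widely. All 30 were in the tables and 29 were tested, with 0 past the adjusted threshold. At the unadjusted threshold, 4 were lower in brain against NMO-like blood, 0 between the blood groups and 1 in brain against normal blood. Of all 10107 genes tested, 388, 25 and 411 were lower at that threshold in the same order. Ptprc was among the signalling genes that were lower in each comparison with brain. Ptprc, which encodes CD45, the phosphatase that sets LCK activity and a marker of the sort itself, was at 1529 ± 372 CPM in Nor_Bl_mono, 1612 ± 281 CPM in NMO_Bl_mono and 735 ± 272 CPM in NMO_Br_mono (SD, n = 3 each). All brain libraries were below all blood libraries, with adjusted p = 0.511 and adjusted p = 0.426 in edgeR against Nor_Bl_mono and NMO_Bl_mono. Group means in the same order were 333, 395 and 136 CPM for Prkcb, 517, 356 and 643 CPM for Lyn, the Src family kinase of B cells and myeloid cells, and 230, 185 and 244 CPM for Ptpn6, a phosphatase that restrains both receptors. Medians were -0.52, 0.21 and -0.33.

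**Figure D4:**
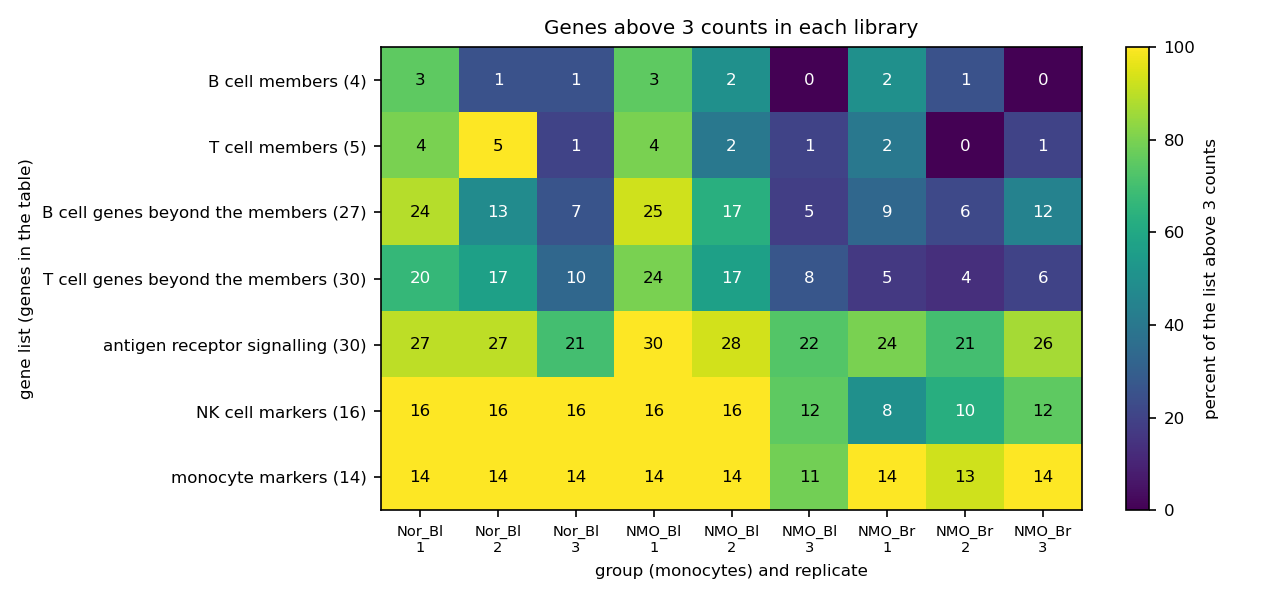
Number of genes above 3 counts (printed in each cell) for 7 gene lists (rows, with the number of genes in the tables) in each library (columns); colour gives the percent of the list. B and T cell lists thin out in replicate 3 of each blood group and in brain, while at least 21 of 30 signalling genes and 11 of 14 monocyte markers are above 3 counts in every library.

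Detection of the members did not follow that of the wider lists in every library. Further B cell genes above the floor numbered 24, 13 and 7 of 27 in the normal blood libraries, 25, 17 and 5 in those of NMO-like blood, and 9, 6 and 12 in those of brain. In the same brain libraries, B cell members above the floor numbered 2, 1 and 0. Further T cell genes numbered 20, 17 and 10 of 30, then 24, 17 and 8, then 5, 4 and 6. The libraries with the most genes, replicate 1 of each blood group (10669 and 11556 genes with a count), were those with 7 members above the floor. NMO_Bl_mono replicate 3, with the fewest genes, had 1. NMO_Br_mono replicate 1 had counts for 9875 genes, more than Nor_Bl_mono replicate 2 with 9541, and 4 members above the floor against 6, while NMO_Bl_mono replicate 2, with 10158 genes, also had 4. The part of library complexity in the members' zeros was not tested.

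Left out together, NMO_Bl_mono replicate 3 and NMO_Br_mono replicate 2 did not change the counts of members called. The counts stayed at 0 at the adjusted and the unadjusted threshold in all 3 comparisons in edgeR, and the medians were -2.64, -0.22 and -2.59. Lck was then at -2.64 in brain against NMO-like blood and at -2.86 against normal blood. This alternative was chosen after the data were seen.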

How the data were processed

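The authors sequenced QuantSeq 3ʹ libraries as single reads of 75 bases, aligned them with Bowtie2 to mm10 and counted reads per gene with bedtools; versions and the strand setting are not given in the sources used here. The deposited values are raw counts per gene, 23282 entries a library; 35 symbols appeared repeatedly, and their entry of highest total count was used. Reads with several alignments were counted by the authors, and no molecular identifiers are stated, so intervals and floors cover counting error only.

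The 9 libraries were fitted together in edgeR 4.0.16 (R 4.3.3) with TMM factors, filterByExpr by group (10107 genes kept) and the quasi-likelihood test, with Benjamini-Hochberg adjustment over all genes tested. The common dispersion was 2.87. CPM use TMM factors, which ran from 0.800 to 1.46. Where a group was at 3 counts or fewer in every library, the fold is a bound against the mean floor of its libraries. The test was checked on simulated data with known answers. Recovery of the known changes was required only at a dispersion far below that of these data.

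The members and lists were chosen with earlier results of these data known. All members were named; from other lists (B cell, T cell, signalling, NK, monocyte, plasmacytoid dendritic cell, neutrophil, platelet, erythroid and microglia genes), those with an adjusted p under 0.05 and the 4 with the highest mean CPM could be named; some genes are not reported here. Genes nearest in pattern had the smallest mean absolute difference of centred log2(CPM + 1). Alternatives were other scalings, filters, tools (DESeq2 1.42.0, limma 3.58.1), a replicate block and leaving out libraries. Gene positions are from GENCODE for GRCm38, the same assembly as mm10.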

Additional observations from a re-analysis of the deposited data

How the results depend on the processing

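The count of members past an adjusted p of 0.05 was 0 in each comparison under every alternative that gave a value; a minimum of 10 counts in every library kept no member and gave none. The count past the unadjusted threshold, 0 in edgeR, became 1 with no expression filter (Lck), 2 with DESeq2 and 2 with limma-voom in brain against normal blood, and 1 with DESeq2 and 2 with limma-voom in brain against NMO-like blood. Leaving out 1 library each gave 0 to 1 in each of these comparisons: Lck without NMO_Br_mono replicate 3, and, against NMO-like blood, Cd79a without NMO_Bl_mono replicate 3. Shares of all genes past the unadjusted threshold under these alternatives are not given here, so the counts have no background beside them.

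The replicate block moved the median log2 fold change from -2.10 to -4.16 in brain against NMO-like blood and from -3.18 to -5.83 in brain against normal blood, and turned Cd79b to -3.90 in the latter. After the group mean of each gene was subtracted on the log2 scale, same-numbered libraries of different groups correlated at -0.010 to 0.116. The numbers were therefore not taken to pair them. Limma-voom gave a median of -4.96 in brain against normal blood, beside -0.45 over all genes. Leaving out 1 library gave medians of -7.53 to -0.54 against NMO-like blood and -8.72 to -2.59 against normal blood, the lowest each without NMO_Br_mono replicate 1.

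Of 370 recomputed fold changes of members, 340 kept direction and side of the threshold, 30 reversed and 0 passed it; 11 of 21 results reversed somewhere. Limma-voom reversed Cd79b (-3.60), Ms4a1 (-0.89) and Cd3d (-0.75) in brain against NMO-like blood, Cd79b (2.79), Ms4a1 (0.015) and Cd3g (-3.11) between the blood groups, and Cd79b (-0.81) in brain against normal blood. Leaving out 1 library gave, in brain against NMO-like blood, -2.06 to 2.14 for Cd79b, -7.53 to 7.59 for Ms4a1, -6.51 to 6.61 for Cd3d and -9.72 to 1.24 for Cd3g. Between the blood groups it gave -1.65 to 3.78 for Cd79a, -1.45 to 0.15 for Cd79b, -8.90 to 7.57 for Ms4a1 and -2.04 to 2.21 for Cd3g. In brain against normal blood it gave -2.50 to 1.28 for Cd79b, -8.86 to 7.59 for Ms4a1 and -8.44 to 0.11 for Cd3g. Without NMO_Bl_mono replicate 3 and NMO_Br_mono replicate 2 together, Cd79b was at -2.65 and Cd3g at 1.82 in brain against NMO-like blood, Cd79b at 0.15 and Cd3g at -2.04 between the blood groups, and Cd79b at -2.50 in brain against normal blood. The cause was not tested. RLE factors moved the median of all genes from 0.05 to 0.13 in brain against NMO-like blood and from -0.12 to -0.02 in brain against normal blood, and reversed no member. Limma-voom moved the median of all genes further, to -0.67 and -0.45 in these comparisons, and to 0.17 between the blood groups. In brain against NMO-like blood it was 0.33 without NMO_Bl_mono replicate 1 and -0.28 without NMO_Br_mono replicate 1.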

Other observations

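The genes whose pattern over the 9 libraries was nearest to the summed B cell members included Slc25a38, Zfhx2, Znrf2 and Actr5, with a mean absolute difference of 0.473 to 0.637 on the centred log2 scale, beside a median of 1.94 over 7448 candidates. None of these 4 is in a B cell list used here. Nearest to the summed T cell members were Pdlim1, Tagap1, Dgkg, Tagap and Chsy1, at 0.335 to 0.546 beside a median of 1.85. Pdlim1 was at 139, 138 and 42.5 CPM in Nor_Bl_mono, 130, 55.0 and 69.5 CPM in NMO_Bl_mono, and 6.33, 0 and 20.7 CPM in NMO_Br_mono. These are descriptions over libraries that share depth and complexity.

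Platelet markers were at 514 to 3188 CPM in summed level in Nor_Bl_mono, 630 to 2662 CPM in NMO_Bl_mono and 0 to 39.8 CPM in NMO_Br_mono, and 2 of 8 fell in brain against each blood group at an adjusted p under 0.05 in edgeR, Ppbp and Nrgn. Erythroid markers were at 898 to 4277 CPM, 1649 to 5422 CPM and 1.05 to 402 CPM, with 0 of 5 tested past that threshold and 4 of 5 past the unadjusted one in each comparison with brain. Microglia markers were at 31.2 to 74.1 CPM, 0 to 53.0 CPM and 432 to 565 CPM, with 0 of 6 past the adjusted threshold and 3 of 6 higher at the unadjusted one. Of all 10107 genes tested, 23 were lower at the adjusted threshold in brain against NMO-like blood and 22 against normal blood. At the unadjusted one, 388 and 411 were lower, and 150 and 177 higher, in the same order. Neutrophil markers were at 85.0 to 301 CPM, 127 to 317 CPM and 444 to 1822 CPM, and plasmacytoid dendritic cell markers at 188 to 316 CPM, 87.7 to 237 CPM and 142 to 435 CPM, with none past the adjusted threshold. Their part in the values of the B and T cell genes was not tested.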
